A study of Tribolium castaneum with 6 samples.

Results

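The Hox genes of the red flour beetle *Tribolium castaneum* were examined in late larvae after knockdown of TcAMPKα, the catalytic subunit of the energy sensor AMP-activated protein kinase. The members were found by name: 14 gene names (Abd-A, Abd-B, Ubx, Utx, Antp, Ptl, Scr, Cx, Dfd, mxp, lab, zen, zen2 and ftz) were looked up in the transcript tables, ignoring upper and lower case. Rows were found for 11 of these names, which make 11 of the 15099 genes and 27 of the 31944 transcripts listed. The other 3 names, Utx, Antp and Scr, are given by the NCBI gene table as synonyms of Ubx, Ptl and Cx, so the beetle names are used throughout.

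Hox genes encode homeodomain transcription factors that give the segments of an insect their identity, and loss of one often turns a body part into the likeness of a neighbouring one. They lie in a cluster, and in *Drosophila* and in beetles their order along the chromosome matches the order of the body regions they act in, from the head genes at one end to the posterior abdomen genes at the other. Polycomb and trithorax group proteins keep them off or on in each segment through larval life. The cluster of *T. castaneum* is unbroken, unlike that of *Drosophila*, and also holds ftz and zen genes, which are derived Hox genes that have lost the segment identity role in *Drosophila*.

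The comparison was of 6 libraries, 3 of dsEGFP and 3 of dsTcAMPKα larvae. Larvae of both groups were of the Georgia-1 strain, were raised on yeasted flour and were injected at 20 days of age with double-stranded RNA, about 200 ng each. In the dsEGFP group this RNA targeted EGFP, a fluorescent protein gene that wild-type beetles lack, and in the dsTcAMPKα group it targeted TcAMPKα. RNA came from 10 whole unsexed larvae per library, 6 days after injection. A library is thus a mixture of all segments and tissues, in which fewer cells that express a Hox gene and less RNA per cell cannot be told apart. The labels describe the replicates as biologically independent, and the p values measure only the spread between these 6 libraries.

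Values are FPKM as deposited (fragments per length of transcript and per size of library, a level per transcript length), summed over the transcripts of a gene. Reads estimated from coverage came to between 33518139 and 37584930 per library. The targeted gene, listed as Snf1a, had 77.3, 74.9 and 56.9 FPKM in the dsEGFP replicates 1 to 3, against 10.7, 7.32 and 16.3 FPKM in the dsTcAMPKα replicates 1 to 3. It fell by 2.56 on the log2(FPKM + 1) scale (adjusted p = 0.0164), which left no overlap between the groups, and its adjusted p was over 0.05 without dsEGFP replicate 2 (0.0594) and without dsTcAMPKα replicates 1 (0.0885) or 2 (0.0943). Genes with a mean of at least 1 FPKM were tested with limma, and a gene was called where its adjusted p (Benjamini-Hochberg) was under 0.05 and its log2 fold change was above 1 or below -1. Of 10981 tested genes 747 were called (6.8%), 449 higher (4.09%) and 298 lower (2.71%) in the dsTcAMPKα group. Over all tested genes the log2 fold change had a median of 0.20 and went up with the length of the transcript (Spearman's rho 0.64 over 10981 genes, which share the same 6 libraries). Without dsTcAMPKα replicate 1 or without replicate 2 the number of called genes was 0.

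The 11 Hox genes lay within 762375 bases of sequence NC_007417.3 of the Tcas5.2 assembly, from 7827212 to 8589586. In order of their start they were Abd-B, Abd-A, Ubx, Ptl, Ftz, Cx, Dfd, Zen, Zen2, Mxp and Lab, that is, from the posterior abdomen gene to the most anterior head gene. All 26 transcripts that the gene annotation or the assembly placed on the plus strand read in this direction, and 1 assembled transcript under the name Abd-A lay on the minus strand. Abd-A spanned 122124 bases (7911705 to 8033828), Ptl 99624 bases (8239810 to 8339433) and Ubx 96643 bases (8122302 to 8218944). These 3 genes were therefore by far longer on the chromosome than Zen (942 bases, 8508390 to 8509331), Ftz (1083 bases, 8414664 to 8415746) and Zen2 (1106 bases, 8509476 to 8510581). The widest gap between neighbours was the 88473 bases between Abd-A and Ubx, and the narrowest the 144 bases between Zen and Zen2.

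Transcripts were found at unequal levels along this row. The 6 genes Abd-B, Abd-A, Ubx, Ptl, Cx and Lab had a mean of at least 1 FPKM and made between 96.3% and 98.0% of the summed Hox FPKM of a library. Ftz, Dfd, Zen, Zen2 and Mxp stayed below 1 FPKM in all 6 libraries. The genes of higher level thus lay at the abdominal and thoracic end and at the head end of the row, with low genes between Ptl and Cx and between Cx and Lab.

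**Figure D1:**
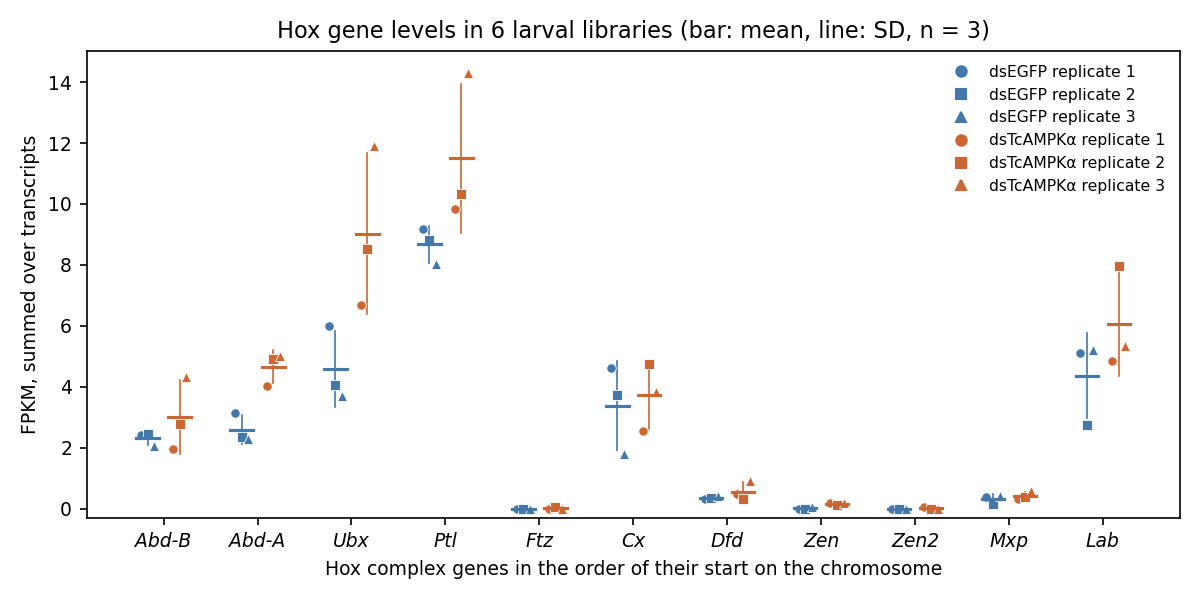
Level of each Hox gene in FPKM (y axis, linear) in the 6 libraries, with the genes along the x axis in chromosomal order, where points are libraries, horizontal bars means and vertical lines SD (n = 3 per group). Ptl had the highest level in every library, the dsTcAMPKα points of Abd-A, Ubx and Ptl lay above all their dsEGFP points, and Ftz and Zen2 lay at or near 0.

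Ptl (prothoraxless, the Antp gene of *Tribolium*, needed for leg identity and the thorax) had the highest level of the cluster. Its level was 9.18, 8.83 and 8.01 FPKM in the dsEGFP replicates 1 to 3, against 9.84, 10.3 and 14.3 FPKM in the dsTcAMPKα replicates 1 to 3. The lowest dsTcAMPKα library lay just above the highest dsEGFP library, and replicate 3 stood apart upward within the dsTcAMPKα group. The mean was 8.68 ± 0.600 FPKM against 11.5 ± 2.45 FPKM (SD, n = 3 each), a log2 fold change of 0.35 with a 95% confidence interval from -0.09 to 0.80 (limma, adjusted p = 0.213).

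Ubx (Ultrabithorax, called Ultrathorax in *Tribolium*, which sets the third thoracic segment and the hindwing apart from the segment in front) came next. It measured 5.99, 4.07 and 3.68 FPKM in the dsEGFP replicates 1 to 3, against 6.67, 8.51 and 11.9 FPKM in the dsTcAMPKα replicates 1 to 3. Every dsTcAMPKα library was above every dsEGFP library, with dsEGFP replicate 1 close to dsTcAMPKα replicate 1. The mean was 4.58 ± 1.24 FPKM against 9.03 ± 2.65 FPKM (SD, n = 3 each), a ratio of means of 1.97 and a log2 fold change of 0.83 (95% confidence interval 0.21 to 1.46, adjusted p = 0.0708 from limma).

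Abd-A (abdominal-A, which gives abdominal segments their identity and represses legs there) was lower in level. Summed over all transcripts under its name, it had the smallest adjusted p of the 6 tested Hox genes. It measured 3.14, 2.35 and 2.30 FPKM in the dsEGFP replicates 1 to 3, against 4.03, 4.92 and 5.01 FPKM in the dsTcAMPKα replicates 1 to 3. The groups did not overlap, and within each group the 3 summed values lay close together. The mean was 2.59 ± 0.471 FPKM against 4.65 ± 0.542 FPKM (SD, n = 3 each), a log2 fold change of 0.66 (95% confidence interval 0.21 to 1.10, adjusted p = 0.0567 from limma), which missed both thresholds. Without dsEGFP replicate 3 the adjusted p was 0.0477 at a log2 fold change of 0.60, still under the fold change threshold. All these values include the minus strand transcript, which made 91.4% of the sum in dsEGFP replicate 3. The plus strand transcripts alone lay far apart in the dsEGFP replicates 1 to 3 (2.30, 1.63 and 0.198 FPKM), and their adjusted p was 0.134 from limma.

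Abd-B (Abdominal-B, the gene of the posterior abdomen and genital segments in *Drosophila*) had 2.42, 2.46 and 2.05 FPKM in the dsEGFP replicates 1 to 3, against 1.94, 2.78 and 4.31 FPKM in the dsTcAMPKα replicates 1 to 3. The groups overlapped, because dsTcAMPKα replicate 1 was the lowest of all 6 libraries and replicate 3 the highest. Its log2 fold change was 0.24 (95% confidence interval -0.37 to 0.85, adjusted p = 0.532 from limma).

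On the head side, Cx (Cephalothorax, the *Tribolium* gene for Scr, which acts in the labium and the first thoracic segment) had 4.63, 3.74 and 1.79 FPKM in the dsEGFP replicates 1 to 3, against 2.56, 4.76 and 3.84 FPKM in the dsTcAMPKα replicates 1 to 3. The dsEGFP group alone covered nearly the whole range, and the log2 fold change was 0.14 (95% confidence interval -0.64 to 0.91, adjusted p = 0.784). Lab (labial, the gene of the intercalary segment of the head) had 5.12, 2.76 and 5.21 FPKM in the dsEGFP replicates 1 to 3, against 4.84, 7.98 and 5.33 FPKM in the dsTcAMPKα replicates 1 to 3. The groups overlapped here too, with replicate 2 the lowest library of one group and the highest of the other, and the log2 fold change was 0.41 (95% confidence interval -0.26 to 1.07, adjusted p = 0.328).

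None of the 6 tested Hox genes was called (0 of 6, background 6.8%). At an unadjusted p under 0.05, 2 of the 6 passed, Abd-A and Ubx, beside 36.5% of all tested genes. The estimate was above 0 in 6 of 6, beside 63.9% of all tested genes, and the median log2 fold change was 0.38 beside 0.20. Abd-A, Ubx and Ptl, 3 of the 6, did not overlap between the groups with the dsTcAMPKα libraries higher, beside 31.2% of all tested genes. These shares were read from few genes, and nothing particular to the Hox genes was derived from them.

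The remaining 5 genes were too low for the test. Dfd (Deformed, a gene of the gnathal segments) had 0.328, 0.350 and 0.407 FPKM in the dsEGFP replicates 1 to 3, against 0.473, 0.308 and 0.897 FPKM in the dsTcAMPKα replicates 1 to 3, which overlapped. Mxp (maxillopedia, which gives the maxilla and labium their palp identity) had between 0.139 and 0.426 FPKM in the dsEGFP libraries and between 0.306 and 0.566 FPKM in the dsTcAMPKα libraries, also with overlap. Zen (zerknüllt, a gene of the extraembryonic serosa in *Tribolium*) was listed at 0, 0 and 0.0627 FPKM against 0.186, 0.132 and 0.174 FPKM, which was at most 6 estimated reads in a library. The groups did not overlap for Zen, but at this depth the difference rested on a handful of reads. Ftz (fushi tarazu, a pair-rule gene in *Drosophila*) was above 0 only in dsTcAMPKα replicate 2 (0.0536 FPKM), and Zen2 (a second zen gene) only in dsTcAMPKα replicate 1 (0.0511 FPKM), each with 2 estimated reads.

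For scale, the tested Hox genes had between 76.2 (Abd-A, dsEGFP replicate 3) and 1411 (Ptl, dsTcAMPKα replicate 3) estimated reads in a library, and the mean FPKM of Ptl exceeded that of 53.9% of all 15099 genes while that of Abd-B exceeded 35.6%. All 6 lay below 15.6 FPKM, the median of tested genes. The order of mean levels over the 6 libraries was Ptl, Ubx, Lab, Abd-A, Cx and Abd-B. Abd-A was counted here and in the pairs that follow with the minus strand transcript under its name. Its plus strand transcripts alone had a mean of 2.38 FPKM, below Abd-B at 2.66 FPKM. Ptl was above Ubx in 6 of 6 libraries, Ubx above Lab in 5, Lab above Abd-A in 6, Abd-A above Cx in 4 and Cx above Abd-B in 4. The ranges of all 5 neighbouring pairs overlapped over the 6 libraries, and within the dsEGFP group only the pair of Ptl and Ubx did not overlap.

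The make-up of the Hox transcripts was compared as each gene's share of the summed Hox FPKM. This sum was 31.2, 24.7 and 23.9 FPKM in the dsEGFP replicates 1 to 3, against 30.9, 40.2 and 46.3 FPKM in the dsTcAMPKα replicates 1 to 3. The groups overlapped through dsEGFP replicate 1, which had slightly more than dsTcAMPKα replicate 1. Ubx made 19.2%, 16.5% and 15.4% of the sum in the dsEGFP replicates and 21.6%, 21.2% and 25.7% in the dsTcAMPKα replicates, with no overlap. Abd-A, counted with its minus strand transcript, made 10.1%, 9.51% and 9.59% against 13.0%, 12.3% and 10.8%, again with no overlap. The shares of Abd-B, Ptl, Cx and Lab overlapped between the groups. The level of Ubx relative to that of Ptl was 0.653, 0.461 and 0.460 in dsEGFP and 0.678, 0.823 and 0.831 in dsTcAMPKα, without overlap. For the plus strand transcripts of Abd-A relative to Ptl it was 0.251, 0.184 and 0.0247 in dsEGFP and 0.251, 0.408 and 0.241 in dsTcAMPKα, with overlap. The levels of Abd-B, Cx and Lab relative to Ptl also overlapped between the groups. These shares and ratios were computed as descriptions and were not tested. No background over other genes was computed for them, so no shift in make-up was derived.

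Since the log2 fold change moved with transcript length, each gene was set beside tested genes whose most abundant transcript was up to 25% longer than its own, or shorter by the same factor, and whose mean FPKM was within a factor of 1.5 of its own. The median log2 fold change of the 309 genes like Ubx (3653 nt) was 0.65, with quartiles of 0.44 and 0.83, so the value of Ubx, 0.83, was level with their upper quartile, and 9.71% of them were called. The 482 genes like Ptl (2939 nt) had a median of 0.57, and Ptl itself at 0.35 lay below their lower quartile of 0.40.

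The 260 genes like Abd-A, matched on its most abundant transcript of 1242 nt, had a median of 0.02 with quartiles of -0.29 and 0.31, and Abd-A at 0.66 lay above the upper quartile. The annotated long forms of Abd-A have 3542 and 3530 nt, so this background depends on which transcript is taken as its length. Both its level and its 0.66 included the minus strand transcript. The plus strand transcripts alone (mean 2.38 FPKM, log2 fold change 0.98) were not matched to a set of their own. The 301 genes like Lab (1234 nt) had a median of 0.06 and quartiles of -0.23 and 0.31, and Lab at 0.41 also lay above the upper quartile. The 359 genes like Cx and the 187 genes like Abd-B had medians of 0.25 and 0.34, and the values of Cx and Abd-B lay between the quartiles of their sets.

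After a smooth trend on length was removed from each library, the log2 fold changes were 0.63 for Abd-A, 0.38 for Lab, 0.16 for Ubx, -0.20 for Cx, -0.22 for Ptl and -0.29 for Abd-B. The estimates of Ptl, Cx and Abd-B thus changed sign and that of Ubx shrank from 0.83 to 0.16, while Abd-A and Lab hardly moved. Abd-A, with the minus strand transcript in its sum, was corrected at the 1242 nt of its most abundant transcript, so its value depends on that choice. Its form of 3542 nt held a mean of 34.4% of its estimated reads in dsEGFP and 40.8% in dsTcAMPKα, beside 21.0% and 39.7% for the form of 1242 nt. With FPKM rescaled to TPM, where the values of every library have the same total, Ubx passed both thresholds (log2 fold change 1.10, adjusted p = 0.0303, where 14.7% of all tested genes were called), and Abd-A reached 0.91 (adjusted p = 0.0236), under the fold change threshold.

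**Figure D2:**
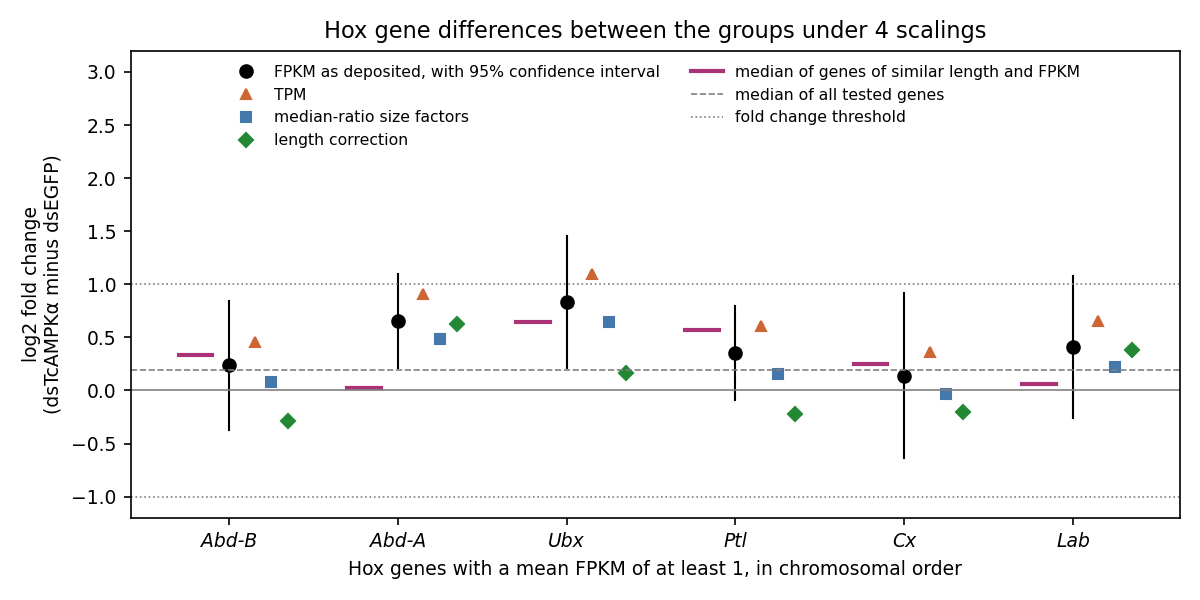
Log2 fold change between the groups (y axis, dsTcAMPKα minus dsEGFP) of the 6 tested Hox genes in chromosomal order (x axis), with black points and lines for the FPKM as deposited and their 95% confidence interval, coloured points for 3 other scalings and purple bars for the median of genes of similar length and FPKM. The purple bars were taken from the FPKM as deposited only, and with these FPKM Abd-A lay above its bar. Ubx reached 1.10 with TPM and 0.16 with the length correction, and Ptl, Cx and Abd-B lay below 0 with the length correction.

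The extremes lay mostly in 1 library of each group, both numbered 3, though the number does not link them. dsEGFP replicate 3 was the lowest of the 6 libraries for 4 of the 6 tested Hox genes and dsTcAMPKα replicate 3 the highest for 4. Over the 6 genes the median deviation from the mean of all libraries (log2) was -0.36 in dsEGFP replicate 3, beside -0.16 for the 1624 genes similar to any of them. It was 0.45 in dsTcAMPKα replicate 3, beside 0.21, and -0.03 in dsTcAMPKα replicate 1, beside 0.19. The part of single libraries in the group differences was read by leaving out each in turn: the log2 fold change of Ubx stayed between 0.64 and 1.01, that of Abd-A between 0.60 and 0.76 and that of Ptl between 0.20 and 0.45. Abd-B and Lab were less stable, Abd-B from 0.014 without dsTcAMPKα replicate 3 to 0.44 without dsTcAMPKα replicate 1, and Lab from 0.17 without dsEGFP replicate 2 to 0.53 without dsEGFP replicate 3.

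The isoforms of one gene did not always move alike. Of the 27 transcripts 11 had a mean of at least 1 FPKM and were tested across 18283 transcripts, and 0 were called (background 2.56%, with 1.56% higher and 0.995% lower), with adjusted p values from 0.0825 to 0.921. At an unadjusted p under 0.05, 3 of the 11 passed, beside 26.5% of all tested transcripts, and the estimate was above 0 in 9 of 11, beside 64.4%. The groups did not overlap for 2 higher transcripts (background 25.6%) and 1 lower transcript (background 10.7%).

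Ubx was listed with a long transcript of 3653 nt in 3 exons (rna2679), a near copy of 3670 nt in 4 exons (rna2678) and a short transcript of 945 nt in 3 exons (rna2680, 8123824 to 8196375). The short one had 0.590, 1.44 and 0.550 FPKM in the dsEGFP replicates 1 to 3, against 2.49, 3.35 and 5.80 FPKM in the dsTcAMPKα replicates 1 to 3. It did not overlap between the groups (log2 fold change 1.37 with a standard error of 0.35, limma adjusted p = 0.0825). The long one had 5.40, 2.63 and 2.17 FPKM against 3.83, 5.16 and 6.03 FPKM, with overlap and a log2 fold change of 0.50 (adjusted p = 0.380). Within the summed FPKM of Ubx the short transcript made 9.84%, 35.4% and 14.9% in the dsEGFP replicates and 37.4%, 39.4% and 48.8% in the dsTcAMPKα replicates (exact permutation test, two-sided, p = 0.1, the lowest that 3 libraries against 3 allow, and 0.475 adjusted over 19 shares of 5 genes). Since FPKM divides by length, the same transcript held a mean of 6.50% of the reads of Ubx in the dsEGFP group and 15.8% in the dsTcAMPKα group.

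Abd-A was the gene in which the sum by name mixed both strands. The minus strand transcript (MSTRG.1241.1, 744 nt, 1 exon, 7928387 to 7929130) lies within the span of Abd-A and carries its name from the assembly. It reached 0.831, 0.722 and 2.10 FPKM in the dsEGFP replicates 1 to 3, against 1.56, 0.702 and 1.56 FPKM in the dsTcAMPKα replicates 1 to 3, which overlapped (log2 fold change 0.06, adjusted p = 0.921). The library kit is not stated to keep the strand, so reads of Abd-A and of a transcript opposite to it cannot be told apart. In dsEGFP replicate 3 this transcript made 91.4% of the FPKM under the name Abd-A, beside 14.3% to 38.8% in the other 5 libraries.

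Without it, the 3 plus strand transcripts of Abd-A had 2.30, 1.63 and 0.198 FPKM in the dsEGFP replicates 1 to 3, against 2.47, 4.22 and 3.45 FPKM in the dsTcAMPKα replicates 1 to 3. The groups still did not overlap, now with dsEGFP replicate 3 far below the rest, at 16.5 estimated reads. The log2 fold change was 0.98 (95% confidence interval 0.01 to 1.96, adjusted p = 0.134 from limma). Most of this came from the shortest annotated form (rna2670, 1242 nt, 3 exons), with 1.34, 0.896 and 0.117 FPKM against 1.66, 3.32 and 2.19 FPKM (log2 fold change 0.96, adjusted p = 0.164).

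Ptl and Cx showed little order in their isoforms. Of the FPKM of Ptl, 3 assembled transcripts of 2675, 2711 and 2939 nt made nearly all, and the single annotated one (rna2688, 3171 nt) made between 0.01% and 18.1% of a library's value. The assembled transcript of 2675 nt was listed at 0 in dsEGFP replicate 3 and at 5.07 FPKM in replicate 2 of the same group, and that of 2939 nt ranged from 1.82 to 9.48 FPKM within the dsTcAMPKα group. The 3 transcripts of Cx, of 1932 to 1961 nt, overlapped between the groups in every case. Such spread within a group exceeded any difference between the groups for these isoforms.

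**Figure D3:**
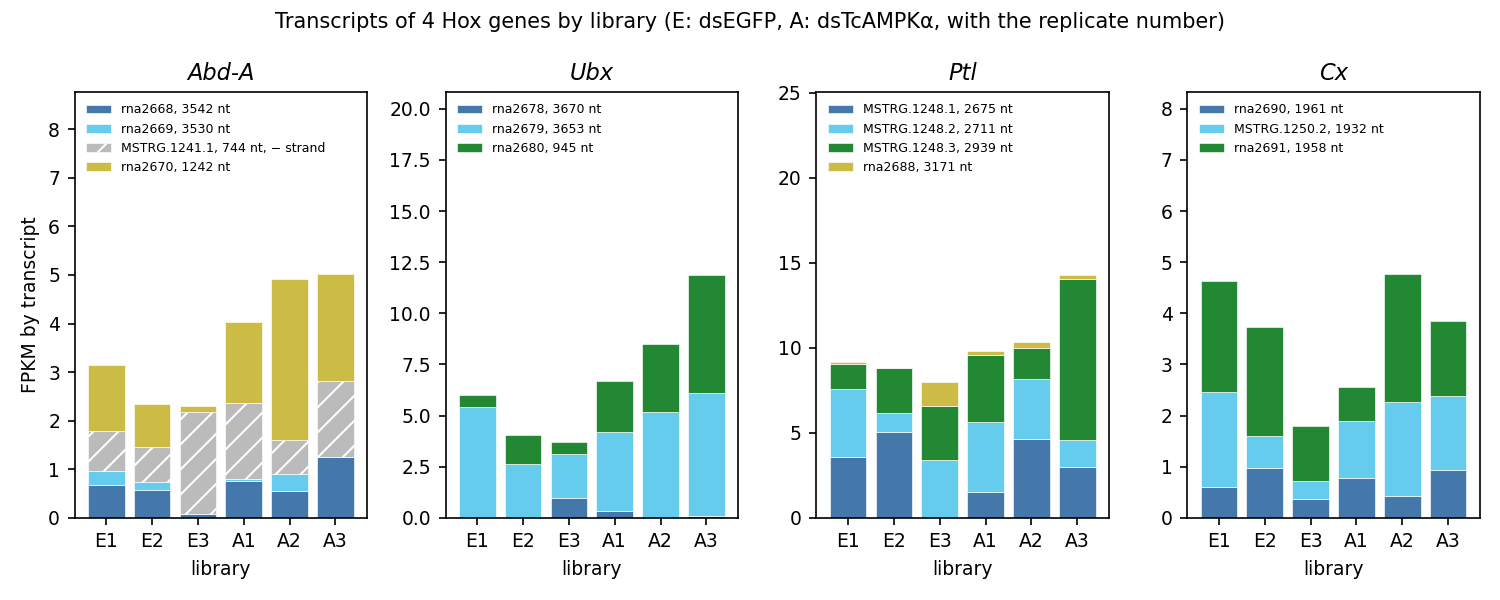
FPKM of each transcript (y axis, linear and different in each panel) of Abd-A, Ubx, Ptl and Cx in the 6 libraries (x axis, E for dsEGFP and A for dsTcAMPKα with the replicate number), stacked to the gene's sum, with the minus strand transcript hatched. The short Ubx transcript of 945 nt made 9.84% to 35.4% of the sum in dsEGFP and 37.4% to 48.8% in dsTcAMPKα, and in dsEGFP replicate 3 nearly the whole Abd-A bar is the minus strand transcript.

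Abd-B had the widest divergence between isoforms. In *Drosophila* this gene is read from several start sites, and the proteins made from them differ at their N terminus. In the beetle 4 transcripts of 7 exons start between 7827212 and 7846971, and 1 transcript of 4 exons (rna2665, 2672 nt) starts at 7879661, nearer to the 3′ end of the gene. The split by start site was chosen after the values had been seen.

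The transcript from the downstream start had 1.83, 1.94 and 2.04 FPKM in the dsEGFP replicates 1 to 3, against 1.09, 0.944 and 0.356 FPKM in the dsTcAMPKα replicates 1 to 3. The transcripts from upstream starts had together 0.588, 0.517 and 0.00647 FPKM in the dsEGFP replicates 1 to 3, against 0.854, 1.83 and 3.95 FPKM in the dsTcAMPKα replicates 1 to 3. The groups did not overlap for either, with the downstream form higher in dsEGFP and the sum of the upstream forms higher in dsTcAMPKα. In each case replicate 3 of a group was the farthest from the other group. The upstream transcripts did not all move alike, and each had a mean under 1 FPKM and was not tested singly. At or near 0 in dsEGFP were rna2661 (at most 0.0474 FPKM) and rna2662 (at most 0.00647 FPKM). In dsTcAMPKα they had 0.218 to 0.490 and 0.180 to 0.470 FPKM, higher without overlap. The transcript rna2663 overlapped between the groups. By contrast, rna2664 was lower on average (0.188 against 0.0558 FPKM, with overlap) and made the whole upstream value of dsEGFP replicate 2. The log2 fold changes were -0.73 (standard error 0.27, adjusted p = 0.149) for the downstream form and 1.14 (standard error 0.43, adjusted p = 0.155) for the upstream forms, both from limma and neither called.

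As a share of the FPKM of Abd-B, the downstream form made 75.7%, 79.0% and 99.7% in the dsEGFP replicates 1 to 3 and 56.0%, 34.0% and 8.26% in the dsTcAMPKα replicates 1 to 3. The means were 84.8% ± 13.0 and 32.8% ± 23.9 (SD, n = 3 each), a difference of -52.0 percentage points (exact permutation test, two-sided, p = 0.1, which is the lowest it can give, and 0.475 adjusted over the 19 shares). When single libraries were left out the difference stayed between -63.7 and -39.8 points, and from coverage times length in place of FPKM it was -51.5 points. The upstream forms rested on 0.43 to 54.8 estimated reads in the dsEGFP libraries and on 67.5 to 323.7 in the dsTcAMPKα libraries. The transcripts overlap on the chromosome, and how StringTie divided reads between them was not tested. Estimated reads added up over both forms were 238, 211 and 209 in dsEGFP and 180, 245 and 356 in dsTcAMPKα, which overlapped, as did the FPKM of the gene.

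**Figure D4:**
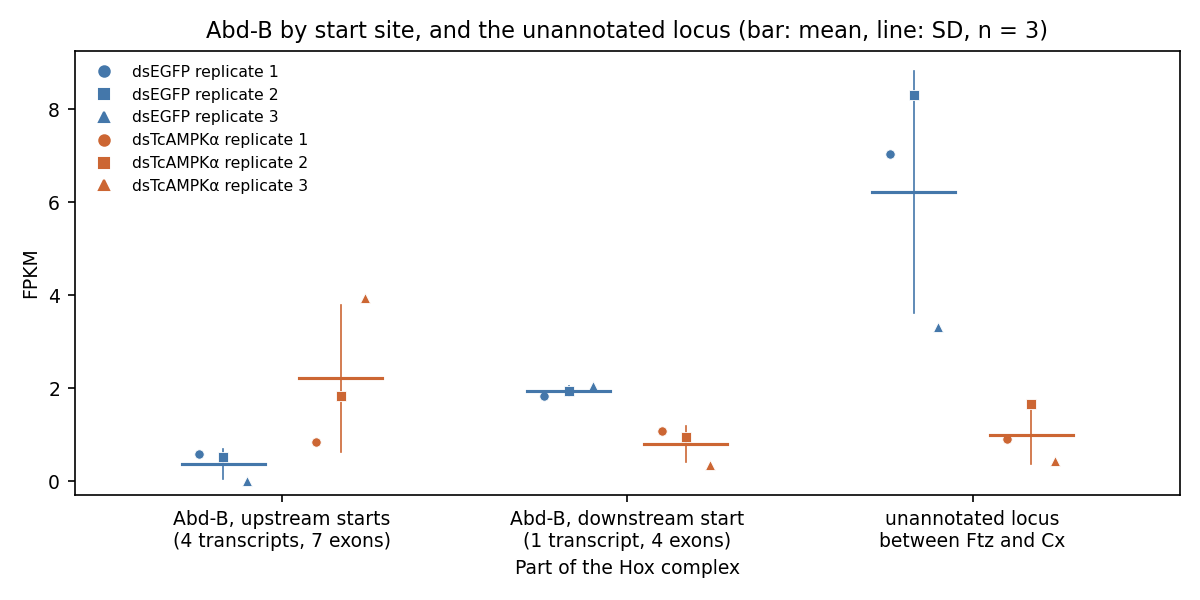
FPKM (y axis, linear) of the upstream and downstream start forms of Abd-B and of an unannotated locus between Ftz and Cx (x axis) in the 6 libraries, with points for libraries, horizontal bars for means and vertical lines for SD (n = 3 per group). The groups do not overlap in any of the 3, with the upstream forms higher and the downstream form and the locus lower in dsTcAMPKα.

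Besides the Hox genes, 11 other named genes or assembled loci lay between the outer ends of the cluster, and 1 of them had a mean of at least 1 FPKM. This locus (MSTRG.1249, plus strand, 8415900 to 8419527) has no gene name, begins 153 bases after the end of Ftz and ends 5827 bases before Cx, and was listed with 3 assembled transcripts of 423 to 541 nt. Its level was 7.05, 8.31 and 3.31 FPKM in the dsEGFP replicates 1 to 3, against 0.909, 1.67 and 0.436 FPKM in the dsTcAMPKα replicates 1 to 3. The lowest dsEGFP library was above the highest dsTcAMPKα library. It fell by 1.82 on the log2 scale (95% confidence interval -2.71 to -0.94, adjusted p = 0.0293 from limma) and was the only locus of the cluster that was called (background 2.71% lower).

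The fall of this locus rested on 58.7 to 137.2 estimated reads in the dsEGFP libraries and 6.57 to 25.8 in the dsTcAMPKα libraries. The log2 value lay between -2.16 and -1.60 when single libraries were left out. The adjusted p ranged from 0.00988 to 0.109 and was under 0.05 only without dsEGFP replicate 3. With the length correction the log2 fold change was -1.25 (adjusted p = 0.153), and with its most abundant transcript alone it was -0.99 (adjusted p = 0.110), so the call was lost in both. The 3-exon transcript of the locus (MSTRG.1249.3) had 3.48, 1.78 and 0.557 FPKM in the dsEGFP replicates but was listed at 0 in all 3 dsTcAMPKα libraries. Whether it belongs to Ftz, to Cx or to a transcript of its own was not tested. Of the Hox genes on both sides of it, Ftz was at or near 0 in both groups and Cx overlapped between them.

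The other 10 loci had means under 1 FPKM. LOC103315187 lies opposite to Abd-B and LOC103315188 opposite to Ubx and Ptl (8126067 to 8274772), and they had at most 0.606 and 0.732 FPKM in a library. LOC107399217, opposite to Abd-B, and Miriab-4, the microRNA precursor on the minus strand within Abd-A, were listed at 0 in all libraries. Miriab-8, on the plus strand at the same place, Mir10 and Mir993 had at most 2.05 estimated reads each. These libraries were made from fragmented poly(A) RNA, so short microRNA precursors were hardly sampled.

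The 3 genes most like each of the 2 highest Hox genes were sought by the Pearson correlation of log2(FPKM + 1) over the 6 libraries, a description without a test. For Ptl they were LOC658155 (r = 0.993), LOC658093 (0.985) and LOC107398856 (0.983), and 32 of 10980 genes had an r over 0.95. For Ubx they were LOC662416 (0.991), LOC103314985 (0.991) and LOC103313834 (0.990), with 122 genes over 0.95. With 6 libraries in 2 groups many genes come this close, and all 6 genes named here had the dsTcAMPKα libraries above the dsEGFP libraries without overlap.

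Genes that act with or above the Hox genes were taken from fixed lists. The Hox cofactors Exd (extradenticle) and Hth (homothorax), homeodomain proteins that bind DNA together with Hox proteins, were both tested and 0 of 2 were called. Exd had 52.7, 46.2 and 37.9 FPKM against 34.6, 42.1 and 43.4 FPKM (log2 fold change -0.18, adjusted p = 0.495), with overlap. Hth had 18.2, 13.3 and 5.42 FPKM against 16.5, 20.7 and 22.4 FPKM (log2 fold change 0.78, adjusted p = 0.210), with dsEGFP replicate 3 far below the other 5 libraries.

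Of the gap and head genes, which set up Hox domains in the embryo of *Drosophila*, 8 were tested, 0 rose (background 4.09%) and 1 fell (background 2.71%). This was Mlpt (mille-pattes, which encodes short peptides and acts as a gap gene in the *Tribolium* embryo), with 409, 144 and 187 FPKM in the dsEGFP replicates 1 to 3, against 8.11, 18.3 and 15.5 FPKM in the dsTcAMPKα replicates 1 to 3. It fell by 3.97 on the log2 scale (adjusted p = 0.0164 from limma), and every dsEGFP library lay far above every dsTcAMPKα library. Its adjusted p was between 0.0637 and 0.0943 without any one of the dsTcAMPKα libraries. The others of highest level, Cad (caudal, 12.5 against 11.2 FPKM on average), Hb (hunchback, 5.62 against 12.4 FPKM, adjusted p = 0.060) and Ems (empty spiracles, 6.51 against 5.81 FPKM), were not called.

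Of the pair-rule genes, 4 were tested and 0 called. Of 12 tested segment polarity and signalling genes, 1 rose (background 4.09%) and 0 fell (2.71%). Pan (pangolin, the transcription factor at the end of the Wnt pathway) had 11.3, 7.60 and 3.46 FPKM against 19.7, 21.5 and 18.4 FPKM (log2 fold change 1.42, adjusted p = 0.0447 from limma), which did not overlap. This call was lost under 12 of the 16 alternatives, the length correction among them (log2 fold change 0.65). Of 14 tested appendage, homeobox and other transcription factor genes 0 were called.

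The Polycomb and trithorax groups, whose proteins hold Hox genes silent or active, were higher in estimate in 13 of 13 tested members, with a median log2 fold change of 0.61 beside 0.20 over all tested genes, and 2 rose while 0 fell. Over all tested genes the estimate was above 0 in 63.9%, and 4.09% rose and 2.71% fell. LOC658843 (trithorax by the NCBI gene table, a histone methyltransferase that keeps Hox genes active in *Drosophila*) had 2.50, 1.41 and 1.47 FPKM in the dsEGFP replicates, against 6.39, 5.73 and 5.77 FPKM in the dsTcAMPKα replicates (a difference of 1.34 in log2, adjusted p = 0.0226 from limma). LOC659010 (kismet, a chromatin protein of the trithorax group) had 8.12, 4.53 and 1.97 FPKM against 13.5, 13.9 and 17.1 FPKM (log2 fold change 1.57, adjusted p = 0.0439). The groups of these 2 genes did not overlap, and their calls were lost under 5 of 15 and 11 of 16 alternatives. With the length correction the median of the list was -0.01 and 0 of 13 were called, LOC658843 at 0.36 and LOC659010 at 0.44, and with size factors 1 rose.

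Markers of tissues that could carry Hox transcripts were read in the same way. Of 17 tested nervous system markers 0 were called. The summed level of all 23 matched genes was between 175 and 218 FPKM in the dsEGFP libraries and between 228 and 257 FPKM in the dsTcAMPKα libraries. A large part of these sums was Dat, a symbol that may stand for more than one gene, with 67.2, 71.7 and 98.8 FPKM against 63.2, 54.5 and 66.02 FPKM, lower in dsTcAMPKα without overlap. Without it, an alternative chosen after seeing the data, the sums were 103 to 141 FPKM and 174 to 194 FPKM. These sums without Dat rested mainly on Syx1A (mean 49.5 against 69.6 FPKM) and Rop (32.7 against 53.6 FPKM). Both were higher in dsTcAMPKα without overlap. The estimate was above 0 in 13 of the 17 tested markers, beside 63.9% of all tested genes. All 23 genes matched to this list were above 0 in some library, while elav, a general neuron marker in *Drosophila*, was not matched. The median log2 fold change of the 17 tested markers was 0.53, or 0.06 with the length correction. The sums and this median as deposited, but not every marker, moved in the same direction as Abd-A, Ubx and Ptl. The part of the markers in the Hox values was not tested.

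Of 12 epidermis and cuticle markers 0 were called, with summed levels of 532 to 1030 FPKM in dsEGFP and 710 to 1260 FPKM in dsTcAMPKα libraries. Single members differed widely in opposite directions within these sums, and the next 3 were picked after their values were seen. Th (tyrosine hydroxylase, of cuticle tanning) had a mean of 79.4 against 317 FPKM with overlap (log2 fold change 2.32, adjusted p = 0.0764). Cht5 (a chitinase) had 104 against 12.9 FPKM (-3.84, adjusted p = 0.065) and Cpap1-a (a cuticle protein gene) 35.6 against 9.25 FPKM (-1.94, adjusted p = 0.0541), both without overlap. Beside Th, the markers of highest level were Cda1 (148 against 217 FPKM), Cpap3-b (116 against 113 FPKM) and Ddc (45.5 against 101 FPKM). Their log2 fold changes were 0.56, -0.02 and 1.28. Cda1 and Ddc did not overlap between the groups. The estimate was above 0 in 5 of the 12 markers. The part of these markers in the Hox values was not tested. Of 13 midgut markers 1 rose (background 4.09%) and 0 fell (2.71%), with summed levels of 3121 to 4720 FPKM and 2826 to 3689 FPKM. This one was Pmp14, a peritrophic matrix protein gene, with 202, 108 and 103 FPKM against 373, 358 and 257 FPKM (log2 fold change 1.30, adjusted p = 0.0368 from limma), and the call was lost under 9 of 16 alternatives, the length correction among them. The sums of the epidermis and of the midgut list overlapped between the groups.

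Of 5 stage markers 0 were called. Kr-h1, the juvenile hormone response gene that keeps larvae from becoming pupae, had a mean of 34.4 against 65.2 FPKM and a log2 fold change of 0.91, under the fold change threshold, at an adjusted p of 0.0293. Br-c, a gene needed for the pupal stage, had 74.7, 32.8 and 12.7 FPKM in dsEGFP and 27.8, 35.6 and 32.8 FPKM in dsTcAMPKα (log2 fold change 0.01, adjusted p = 0.993). The dsEGFP libraries spanned the whole dsTcAMPKα range, with replicate 1 far above the rest.

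**Figure D5:**
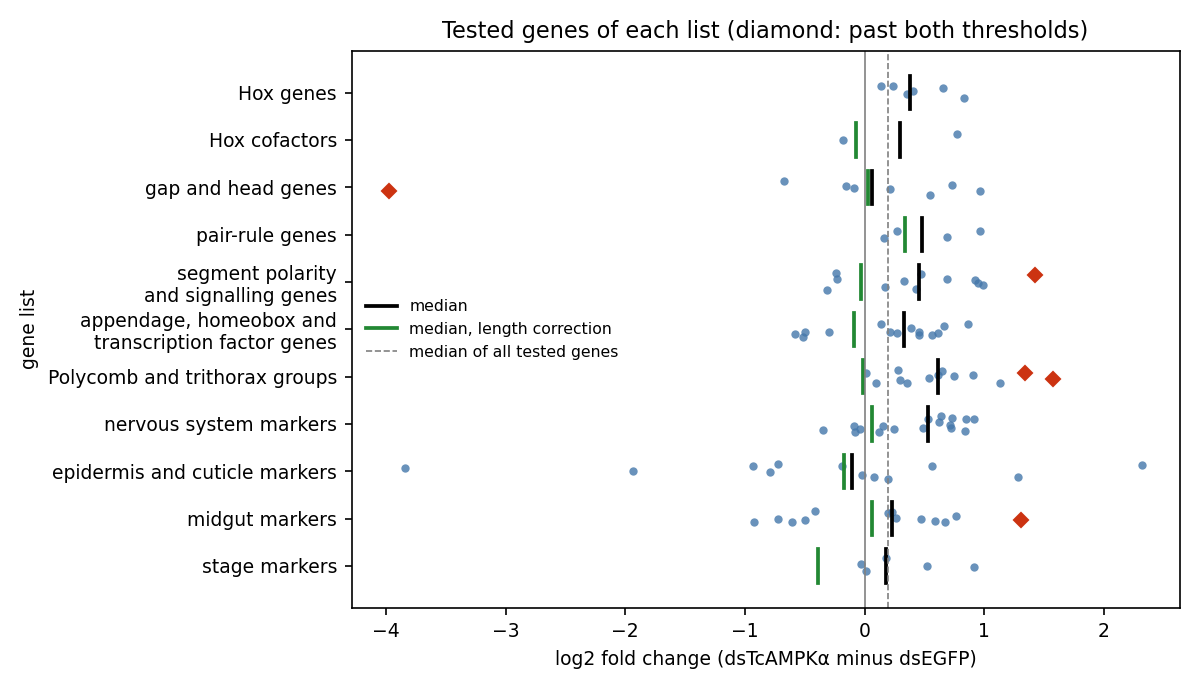
Log2 fold change (x axis, dsTcAMPKα minus dsEGFP) of each tested gene in the Hox genes and the other lists (y axis), with red diamonds for genes past both thresholds and black bars for list medians. Green bars are medians with the length correction and are not drawn for the Hox genes. No Hox gene is a diamond, Mlpt stands at -3.97 among the gap and head genes, and the black median of the Polycomb and trithorax groups at 0.61 lies well to the right of its green median at -0.01.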

How the data were processed

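RNA-Seq of 6 libraries was used, 3 per group. HISAT2 was used by the authors for alignment to Tcas5.2, and StringTie for assembly. The submitters' processing notes also name Bowtie2 and TopHat2. Versions are not given in the sources used here. The authors deposited FPKM per transcript, divided by transcript length and library total, and coverage, a signal in reads per base with no scaling between libraries. Raw counts were not used here, so the study's DESeq2 test was replaced.

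FPKM were summed by gene name, or by assembled locus where a row has none. Genes with a mean of at least 1 FPKM were tested with limma 3.58.1 (R 4.3.3, with a variance trend in eBayes) on log2(FPKM + 1), which understates changes of low genes. All adjusted p values are Benjamini-Hochberg values from limma over all genes or transcripts tested. Differences are dsTcAMPKα minus dsEGFP. Shares were compared with an exact permutation test (scipy 1.17.1 in Python 3.11.15). Reads were estimated as coverage times length over the read length of 150 nt. They are no counts, so precision is given as the SD over the 3 libraries per group. The length correction removed a lowess trend (span 0.4) of each library's log2 deviation on the length of the most abundant transcript. The limma test was run on simulated data whose planted changes were larger than those estimated for the tested Hox genes. Its power for changes as small as theirs was not tested.

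Groups came from the labels, and replicate numbers, given in accession order, only name the libraries. The text names all Hox genes, the target, loci of the cluster with a mean of at least 1 FPKM, list members past both thresholds and up to 4 others of highest level per list, and the 3 genes most like Ptl and Ubx. Low loci of the cluster are described as well, and Cht5 and Cpap1-a of the epidermis list were added after their values were seen. The members and lists were chosen with earlier results of these data known. The lists held 136 names, of which 18 were matched to no gene, and names were matched through symbols and NCBI gene IDs of a table for another assembly, whose coordinates were not used.

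Alternatives changed the pseudocount (0.1), the filter (none, or at least 5 FPKM), limma-voom on estimated reads as the test, the length correction, the scaling (TPM, quantile normalization, median-ratio size factors), the summary by gene (most abundant or annotated transcripts only), the thresholds and the libraries. The Abd-A sum without the minus strand transcript, the Abd-B split and the nervous system sum without Dat were chosen after seeing the data.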

Additional observations from a re-analysis of the deposited data

How the results depend on the processing

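The 6 tested Hox genes gave 93 values under the alternatives, of which 82 kept their direction and their side of the thresholds, 1 passed newly and 10 turned. With TPM 1 Hox gene was called (Ubx) and 1 Hox transcript (rna2680, log2 fold change 1.69, adjusted p = 0.0461), where the count over all genes was 1619. With the length correction, Abd-B turned to -0.29, Ptl to -0.22, Cx to -0.20 and rna2679 of Ubx to -0.16, and 121 genes were called in all. With the most abundant transcript alone, Abd-B was at -0.73 and Cx at -0.17. Cx was also at -0.036 with size factors, -0.051 with quantile normalization and -0.067 with annotated transcripts only. It ranged from -0.16 without dsEGFP replicate 3 to 0.35 without dsEGFP replicate 1, and was at -0.018 without dsTcAMPKα replicate 2. All Cx values had an adjusted p of at least 0.441. When single libraries were left out the count over all genes ranged from 0 to 1198, while 0 Hox genes and 0 Hox transcripts were called. The count was 34 without dsTcAMPKα replicate 3 and 77 without dsEGFP replicate 2. With the adjusted p alone 1807 genes passed. TPM divides by the summed FPKM of a library. This sum was 785135, 832532 and 790854 in the dsEGFP replicates 1 to 3, against 679634, 661910 and 666902 in the dsTcAMPKα replicates 1 to 3. The causes of the shifts under the alternatives were not tested. The difference in the share of the downstream Abd-B form kept its sign under its 7 alternatives.

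No paired analysis was possible because the labels give no replicate numbers and each library pools different larvae. With 3 libraries per group the exact permutation test cannot go below p = 0.1. FPKM are relative to a library's total, whole larvae mix all segments, and genes with few reads, such as Zen, Zen2 and Ftz, could not be compared at this depth.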
